A study of Mus musculus with 6 samples.

Results

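The renin-angiotensin system genes described here are Agt, Ren1, Ace, Agtr1a, Agtr1b, Agtr2 and Mas1, which were picked from the table by their symbols, with earlier results of these data known. All 7 were found among the 37761 genes of the table. They were measured by RNA sequencing in 6 mouse libraries. Embryonic pancreas was the entire organ at e15.5 (3 libraries), and adult islets were its endocrine clusters, released by collagenase in mice 12 weeks old (3 libraries). All mice were labelled wild type, and the sources used here give no strain, sex or pooling of animals. The groups thus differ in tissue, isolation and age at once, and these cannot be told apart. The labels name no separate animals for the replicates, so p-values measure only the spread between libraries, which may be technical.

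In the renin-angiotensin system the protease renin cuts angiotensinogen, the product of Agt, to angiotensin I, and the carboxypeptidase ACE trims this to the active octapeptide angiotensin II. Angiotensin II acts through type 1 receptors, which mice encode in the copies Agtr1a and Agtr1b, and through the type 2 receptor Agtr2, which is known for its high level in fetal mesenchyme. Mas1 is a receptor for a shorter angiotensin peptide. Local forms of the system have been described in the pancreas, where type 1 receptors are studied for their part in islet blood flow and insulin release.

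The start regions of the members show where transcription of these genes is set up. RefSeq windows of 300 bases (build GRCm38.p6, 250 before to 50 after a start, in the direction of the gene) were found for 6 of the 7 members, and Ace had a window for each of 2 starts. Each was searched on both strands for 4 TATA words that can overlap each other, namely the word TATAAAA, the word TATAAAT, the word TATATAA and the word TATATAT. A word lay in 5 of the 7 member windows, against 12.5% of 32851 windows of all genes. In 4 of the 7 a word began 40 to 20 bases before the start on the strand of the gene, against 1.96% of all windows. The 30 bases from 40 to 11 before the start of these 4 are shown, with the TATA word in capitals, because they include the member that rose in the islets (Agt) and the receptors that fell to the floor of detection (Agtr1b and Agtr2).
Agt, chr8:124569717-124569746, minus strand: accccttgagTATAAATaagcctgcttggc
Ren1, chr1:133350634-133350663, plus strand: tacatggtgtgTATAAAAgaaggctcaggg
Agtr1b, chr3:20367188-20367217, minus strand: cctttgctgTATAAATtgtagctgtctccg
Agtr2, chrX:21484584-21484613, plus strand: ggacagagcgaaTATATAAgaaggaaacca
The word begins 30 bases before the start in Agt, 29 in Ren1, 31 in Agtr1b and 28 in Agtr2. Agt and Agtr1b have the same word and moved in opposite directions. A match is a description of letters and not of a bound site.

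Values below are the authors' normalized counts, that is reads per gene divided by a size factor per library, and 1 normalized count is about 1 read. Reads assigned to genes ranged from 35059950 to 39713899 in the embryonic libraries and from 41983532 to 47346870 in the islet libraries. Log2 fold changes compare the islets with the embryonic pancreas and were fitted by limma-trend on log2(value + 1), which understates changes of low genes. A gene was tested if 3 or more libraries reached 10 normalized counts, and called if its p, adjusted over all 21653 genes tested (Benjamini-Hochberg), lay under 0.05. Scaling that leaves aside the 20 most abundant genes of each group shifts the median log2 fold change over all genes tested from −0.03 to −0.27. The calls go from 7845 higher and 7925 lower to 6614 higher and 9583 lower. The labels were checked against markers fixed by list: 10 of 10 islet endocrine genes were higher in the islets, where their summed values were 5056522 to 5681698, against 30518 to 58364 in the embryonic libraries, led by the insulin genes Ins2 and Ins1 in the islets and by Gcg and Iapp in the embryonic pancreas. Of 10 acinar genes, led by Pnlip and Ctrb1 in the islets and by Cpa1 in the embryonic pancreas, 4 were higher and 5 lower in the islets. Their islet sums were 270408, 538215 and 209341, highest in the second library.

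Of the 7 members, Agt was higher in the islets, Agtr2, Agtr1b, Agtr1a and Mas1 were lower, Ace was not called, and Ren1 was too low to be tested. Among all genes tested 72.8% were called, 36.2% as higher and 36.6% as lower, so a call by itself is common in this comparison. The counts of every marker and pathway list are to be read beside these same shares. Agtr2 and Agtr1b passed the filter on low values through the embryonic libraries alone, so that they had to differ. The values of 5 members did not overlap between the groups, and the same held for 77.1% of all genes tested. The same 5 members were called by edgeR and by DESeq2 on recovered reads, which called 74.2% and 71.2% of those genes, and in the authors' deposited table, where 53.3% of genes with an adjusted p-value passed 0.05. The median log2 fold change of the 6 members tested was −0.88, beside the −0.03 of all genes. In bulk RNA, fewer cells of a type and less RNA per cell cannot be told apart.

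**Figure D1:**
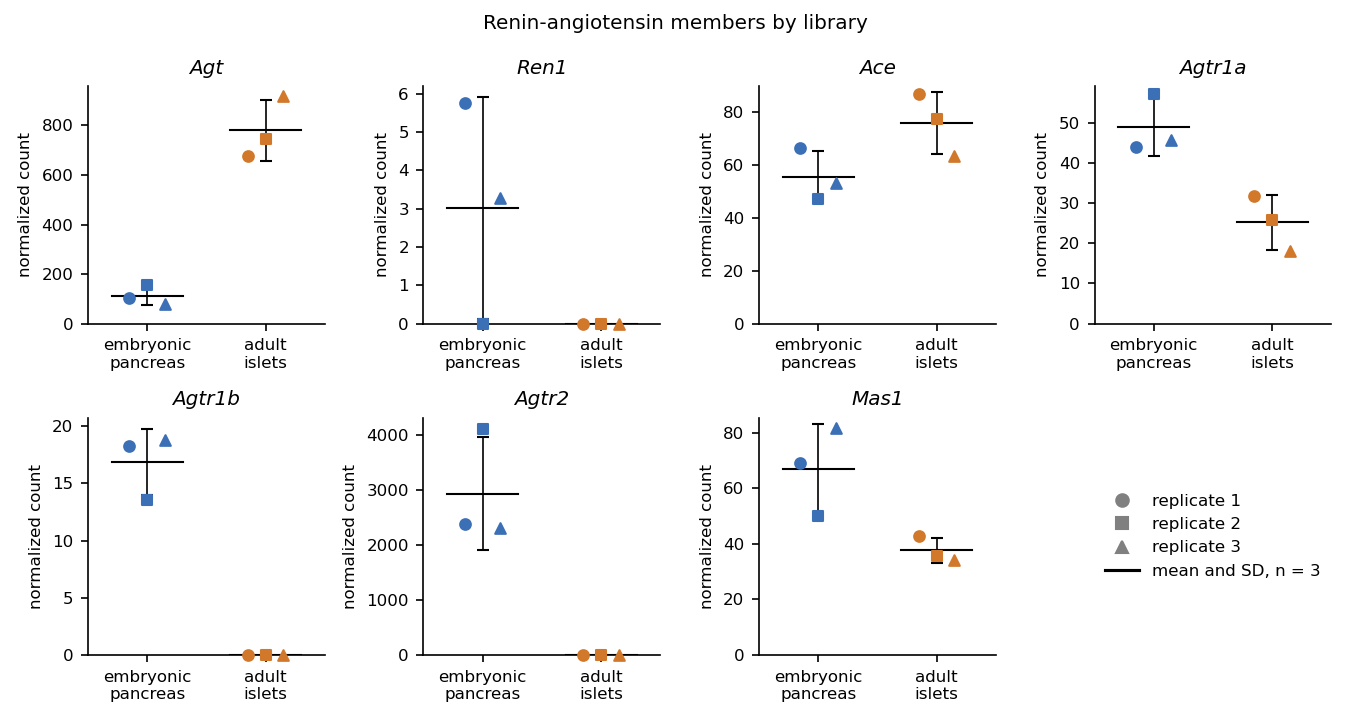
Normalized counts (vertical axis, from 0, a separate scale for each gene) of the 7 members in the 3 embryonic pancreas libraries (blue) and the 3 adult islet libraries (orange); horizontal bars are means and error bars SD, n = 3. Agt lies between 677 and 917 in the islets and between 79.3 and 154 in the embryonic pancreas, and the islet points of Agtr1b and Ren1 lie at 0.

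Agt, the precursor of all angiotensins, was the member that rose. In the embryonic libraries it had 105, 154 and 79.3 normalized counts, and in the islets 677, 746 and 917. The second embryonic library was the highest of its group, and the lowest islet library was still far above it. The means were 113 ± 38.2 and 779.9 ± 124 (SD, n = 3), a log2 fold change of 2.82 (SE 0.24, limma-trend adjusted p = 7.0e-06). The gene lies on the minus strand of chromosome 8, 124556534 to 124569706 (GENCODE M21 on GRCm38), and shares no exonic base with another annotated gene. Over 16 alternative settings its log2 fold change ranged from 2.59 to 3.07.

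Agt is best known as a product of hepatocytes. Of 10 hepatocyte genes 8 were tested, 3 were higher and 3 lower in the islets. Their summed values were 2034 to 3134 in the embryonic libraries, led by Afp and Alb, and 735 to 1506 in the islets, led by the fibrinogen genes Fgb and Fgg. Among the 3 that fell, Alb, the gene of serum albumin, went from 285 ± 70.1 to 22.2 ± 6.52 normalized counts (n = 3). The means of Afp went from 1828 to 1.36 and those of Ahsg from 24.4 to 2.4. The 3 that rose were all fibrinogen genes. Their means went from 187 to 927 (Fgb), from 10.2 to 160 (Fgg) and from 25.6 to 75.2 (Fga). Ahsg and Fga were named after their values were seen. Cyp2e1 had no read in the embryonic libraries and 13 over the islet libraries, and was not tested. Within the embryonic group the second library was highest for Agt, for the islet endocrine sum (33542, 58364 and 30518), for the acinar sum (154936, 190928 and 137541) and for the hepatocyte sum (2043, 3134 and 2034). In the islets the third library was highest for Agt and for the islet endocrine sum and lowest for the hepatocyte sum (1506, 1467 and 735) and the acinar sum. The part of these cells in the level of Agt was not tested. Without the second embryonic library the log2 fold change of Agt was 3.07, and without the third islet library 2.70.

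Renin, which starts the cascade, was barely detected. Embryonic libraries held 6, 0 and 4 reads of Ren1 (5.76, 0 and 3.27 normalized counts), and the islets none. The groups overlap, because the second embryonic library was also at 0. The observed embryonic level was 2.95 times the limit that 0 reads allow in the islets, which is 3 reads over the group. This limit and the intervals below cover counting error only. Folds against this limit leave out the counting error of the embryonic reads. An exact permutation test of the 6 values gave p = 0.4 (two-sided, smallest possible p = 0.1), and the authors' deposited table gave an adjusted p-value of 0.166. Ren1 is encoded on the plus strand of chromosome 1, 133350510 to 133360325. Some mouse strains carry a near-identical second renin gene, and the sources used here do not name the strain, so Ren1 reads could hold reads of both copies.

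Markers of cells that can make renin were measured beside it. Of 14 mural and renin-lineage markers 12 were tested, 10 fell and none rose, with summed values of 18250 to 22467 in the embryonic libraries and 4039 to 5042 in the islets. Abcc9 and Rgs5, genes of pericytes, led the list in the embryonic pancreas, and Rgs5 and Pdgfrb in the islets. Foxd1 and Tbx18, factors of the renin-cell lineage, had no read in the islets. Over the embryonic libraries they had 6 and 63 reads, so Foxd1 was near the floor in both groups and was not tested. Of 10 kidney and adrenal markers only 2 passed the filter, and nearly all of their embryonic sum of 587 to 699 was Nphs1 (nephrin, 612 ± 51.7, n = 3), while in the islets the sum was 32.2 to 46.1. Umod and Aqp2 had no read in the embryonic libraries and 1 each in the islets. Six2, Hsd3b1 and Mc2r were among those with none in the islets, beside 9, 11 and 1 reads over the embryonic libraries. These genes were near the floor in both groups and were not tested. The part of the cells of these marker lists in the Ren1 reads was not tested.

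Ace, the converting enzyme of endothelium and brush borders, was low in both tissues. It had 66.3, 47.0 and 53.1 normalized counts in the embryonic pancreas, and 86.8, 77.3 and 63.3 in the islets. The groups overlap, since the third islet library lay below the first embryonic one. The means were 55.5 ± 9.87 and 75.8 ± 11.8 (n = 3), a log2 fold change of 0.45 (SE 0.24, limma-trend adjusted p = 0.121), and the call depended on scaling, since under quantile normalization the log2 fold change was 0.89 with an adjusted p = 0.00581. Ace lies on the plus strand of chromosome 11, 105967945 to 105989964, and shares 5.58% of its exonic length with exons of the antisense gene Gm11651, whose whole span covers 66.3% of it. Without strand, reads of Ace and of unspliced Gm11651 cannot be told apart. Of 12 endothelial markers 1 was higher and 6 were lower in the islets, with summed values of 19878 to 20906 in the embryonic libraries and 13243 to 16969 in the islets, led by Kdr with Pecam1 and with Flt1. The part of the endothelial cells in the Ace values was not tested.

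Agtr2, the type 2 receptor, gave the widest difference among the members. It had 2375, 4106 and 2308 normalized counts in the embryonic pancreas, and 0, 0 and 1.07 in the islets. The second embryonic library was the highest, and the islet values rest on 1 read in all against 9231 in the embryonic group. The ratio of the read rates was 8167 (95% exact counting interval 1465 to 322598), and the fitted log2 fold change of −11.11 (SE 0.36) depends on the pseudocount. Of all genes tested, 0.873% had no read in any islet library. Agtr2 is on the plus strand of the X chromosome, 21484544 to 21489164, and shares no exonic base with another gene.

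The markers of mesenchyme and mesothelium moved with Agtr2 between the groups. Of 14 such genes 13 fell and 1, Msln (mesothelin), rose from 20.3 ± 8.57 to 2176 ± 894 (n = 3). Their summed values were 150598, 130614 and 141145 in the embryonic libraries and 2629 to 3885 in the islets, where Msln alone gave 1737, 1587 and 3205 of the sums of 3472, 2629 and 3885, followed by the collagen gene Col3a1. Some markers of the list, named after their values were seen, were near the floor in the islets. Among them were Barx1 with 1 read, Wt1 and Upk3b with 3 each and Muc16 with 4. Others stayed above it, among them Dcn with 1099 islet reads, Col1a1 with 478, Lum with 143 and Pdgfra with 141. Col3a1 and Col1a1 led the list in the embryonic pancreas, and Nkx3-2, a homeobox factor of the splanchnic mesenchyme, had no read in the islets. Within the embryonic group the order differed, since the second library was highest for Agtr2 and lowest for the mesenchyme sum. The part of mesenchymal cells in the Agtr2 values was not tested.

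The type 1 receptor copies were both low, and both fell. Agtr1a, the main copy in most mouse tissues, had 44.2, 57.4 and 45.8 normalized counts in the embryonic pancreas, against 31.9, 25.8 and 18.2 in the islets. The groups do not overlap, though the first islet library lay close below the embryonic range. The means were 49.1 ± 7.20 and 25.3 ± 6.82 (n = 3), a log2 fold change of −0.96 (SE 0.29, limma-trend adjusted p = 0.0155), which was −0.50 with an adjusted p = 0.150 under quantile normalization. Agtr1b had 18.3, 13.6 and 18.8 normalized counts in the embryonic libraries and no read in any islet library. Its observed embryonic level was 16.2 times the limit of 3 reads over the islet group. No p-value is given for Agtr1b, because it was tested through the embryonic libraries alone and its fitted size is set by the pseudocount.

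Reads from a small part of the coding sequences of these copies can be hard to assign. Agtr1a lies on the plus strand of chromosome 13, 30336441 to 30382867, and Agtr1b on the minus strand of chromosome 3, 20314473 to 20367177. Their coding sequences are both 1077 bases long and were identical at 90.8% of positions in a global alignment, against 47.3 to 50.4% for every other pairing of the 4 receptors. Of the 1028 windows of 50 bases in the Agtr1a coding sequence 3.21% occur unchanged in Agtr1b. The longest shared stretch, 66 bases from base 75 to 140 of both coding sequences, is shown because a read inside it matches either gene.
Agtr1a, chr13:30381028-30381093, plus strand: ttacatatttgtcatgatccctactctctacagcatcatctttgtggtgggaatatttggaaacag
Agtr1b, chr3:20316301-20316366, minus strand: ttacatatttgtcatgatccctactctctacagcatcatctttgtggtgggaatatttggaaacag
When the copies were summed as 1 gene, a choice made after the data were seen, the log2 fold change was −1.38 (limma-trend adjusted p = 0.00166).

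Mas1, the receptor for a shorter angiotensin peptide, was lower in the islets, with a call that several settings ended. It had 69.2, 50.1 and 81.8 normalized counts in the embryonic pancreas, and 42.8, 35.7 and 34.3 in the islets. The groups do not overlap, and the gap between the lowest embryonic and the highest islet library was small. The means were 67.0 ± 16.0 and 37.6 ± 4.57 (n = 3), a log2 fold change of −0.79 (SE 0.26, limma-trend adjusted p = 0.0229). The call ended under quantile normalization (−0.34, adjusted p = 0.221), under upper quartile scaling (−0.69, adjusted p = 0.0546), and without embryonic library 1 (−0.76, adjusted p = 0.0688), embryonic library 3 (−0.64, adjusted p = 0.0720), islet library 2 (−0.76, adjusted p = 0.0656) or islet library 3 (−0.73, adjusted p = 0.0603).

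Mas1 shares no exonic base with another annotated gene, but another RNA runs over part of its span. The gene lies on the minus strand of chromosome 17, 12841079 to 12868143, next to the imprinted Igf2r. The long antisense RNA Airn, which silences Igf2r on the paternal chromosome, runs over it on the plus strand, 12741311 to 12860136, and 87.4% of the exonic length of Mas1 lies inside that span. Airn had 1292, 831 and 1370 normalized counts in the embryonic pancreas, against 423, 437 and 409.9 in the islets, a log2 fold change of −1.42 (SE 0.18, limma-trend adjusted p = 9.5e-05). In the embryonic group both RNAs were highest in the third library and lowest in the second, while in the islets Mas1 was highest in the first library and Airn in the second. Mas1 was 5.35, 6.03 and 5.97% of Airn in the embryonic pancreas and 10.1, 8.16 and 8.38% in the islets. The sources used here do not say whether the counting used strand, and if it did not, reads of unspliced Airn and of Mas1 cannot be told apart. Airn was picked for this after the annotation of the locus and its values were seen, and its part in the Mas1 counts was not tested.

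**Figure D2:**
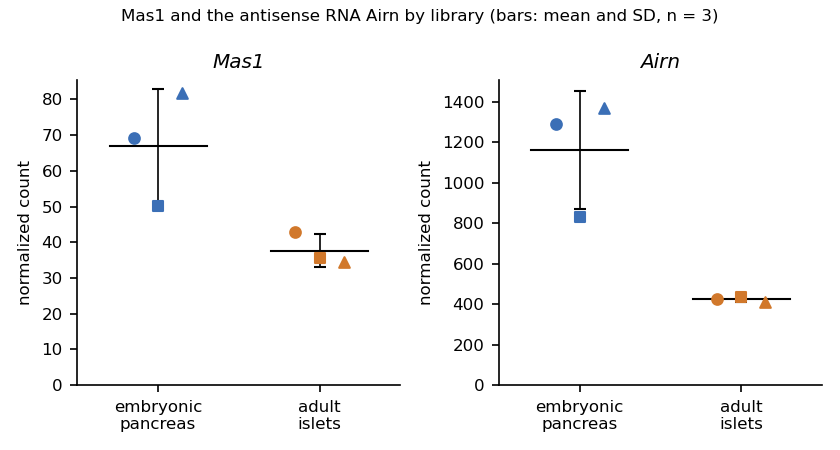
Normalized counts (vertical axes, from 0, separate scales) of Mas1 and of the antisense RNA Airn in the 3 embryonic (blue) and 3 islet (orange) libraries, with mean and SD (n = 3); circles, squares and triangles are replicates 1, 2 and 3. In the embryonic group the third library is highest and the second lowest for both RNAs, and in the islets, where both are lower, Mas1 is highest in the first library and Airn in the second.

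Among the receptors, the type 2 receptor made up nearly all of the embryonic signal and almost none of the islet signal. Of the summed level per kilobase of Agtr1a, Agtr1b, Agtr2 and Mas1, Agtr2 took 93.4, 96.4 and 92.5% in the embryonic pancreas, against 0, 0 and 1.62% in the islets. Mas1 took 3.45, 1.49 and 4.16% in the embryonic pancreas, against 58.8, 59.6 and 65.6% in the islets, and Agtr1a went from 2.07, 1.61 and 2.19% to 41.2, 40.4 and 32.8%. The shares of these 3 receptors did not overlap between the groups, nor did those of Agtr1b, at 0.493 to 1.17% in the embryonic libraries and 0 in the islets. Each comparison gave p = 0.1 in a two-sided exact permutation test, the smallest that 3 against 3 allows, and an adjusted value of 0.125 over the 5 within-library tests. These are not separate results, because the shares of a library add up to the whole, so that a fall of Agtr2 raises the others. The shares of Agtr2 and Agtr1b, with 1 and no islet read, had to differ, so the tests add no support.

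The islet shares rest on few reads. The 4 receptors had 2610 to 4051 reads per embryonic library and 68, 62 and 50 in the islet libraries. Without division by length, Mas1 took 57.4% of those reads in the first islet library (95% exact Clopper-Pearson interval 44.8 to 69.3%), 58.1% in the second (44.9 to 70.5%) and 64.0% in the third (49.2 to 77.1%). For Agtr2, 0 of 68 reads in the first islet library allows a share of up to 4.41% and 0 of 62 in the second up to 4.84%, while 1 of 50 in the third is 2% (0.0506 to 10.7%). Mas1 and Agtr1a thus had higher shares in the islets beside lower normalized counts.

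**Figure D3:**
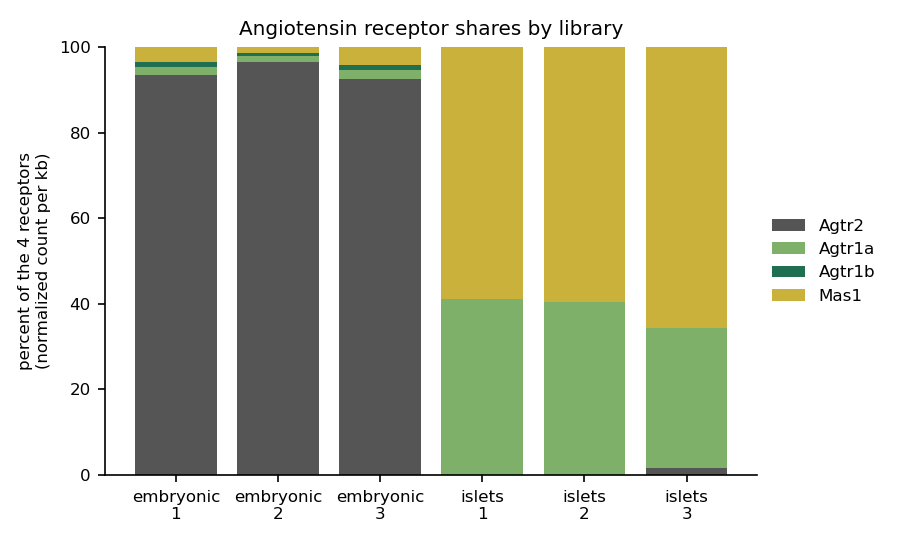
Share of each receptor (percent, stacked to 100) in the summed normalized count per kilobase of Agtr2, Agtr1a, Agtr1b and Mas1, with 1 bar for each library. Agtr2 takes 92.5 to 96.4% in the 3 embryonic libraries, and Mas1 with Agtr1a takes nearly all of the bar in the 3 islet libraries.

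Ranked by level per kilobase of exon, the members ran in a different order in each tissue. In the embryonic pancreas the order was Agtr2 (881 ± 306 normalized counts per kilobase, n = 3), Agt (59.7 ± 20.2), Mas1 (25.6 ± 6.09), Agtr1a (17.6 ± 2.59), Ace (10.5 ± 1.87), Agtr1b (7.86 ± 1.34) and Ren1 (1.82 ± 1.74). Only Mas1 and Agtr1a among neighbours in that order overlapped between libraries. In the islets Agt led (412 ± 65.6), followed by Mas1 (14.4 ± 1.74), Ace (14.3 ± 2.23) and Agtr1a (9.08 ± 2.45), with Agtr2 at 0.108 ± 0.186 and Agtr1b and Ren1 at 0. There Mas1 and Ace overlapped, as did the last 3, and the others did not. Against all 36971 genes with an annotated length, Agtr2 stood above 95.8% of genes in the embryonic pancreas and Agt above 88.6% in the islets, while Ace and Mas1 each stood above 52.8% there. Lengths come from GENCODE M21, which may not be the annotation the authors counted on.

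**Figure D4:**
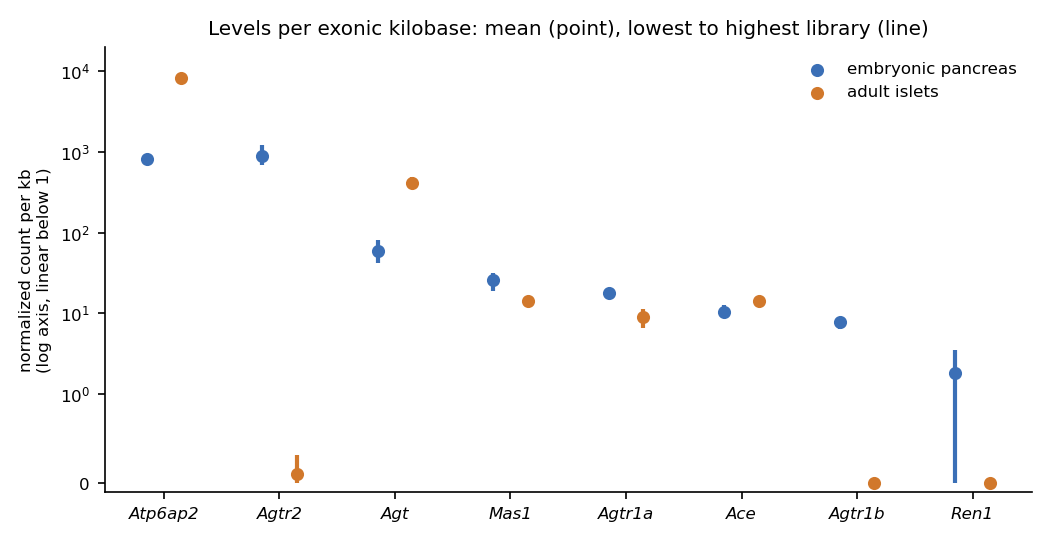
Normalized counts per exonic kilobase (log axis, linear below 1) of the 7 members with the prorenin receptor gene Atp6ap2, in embryonic pancreas (blue) and adult islets (orange); points are means of 3 libraries and lines run from the lowest to the highest library. Agtr2 drops from 881 to 0.108, Agt rises from 59.7 to 412, and Agtr1b and Ren1 are at 0 in the islets.

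The genes most alike to each called member were found by the smallest root mean square difference in log2(value + 1) over the 6 libraries, after each gene was centred on its own mean. The profile of Agt was nearest to those of Nek5, a NIMA-related kinase (0.10), Gpx2, a glutathione peroxidase (0.10), and Syngr1, a synaptic vesicle protein (0.11). All of these rose by 2.76 to 2.86 on the log2 scale. Like Agt, they were highest in the second embryonic library and in the third islet library. They were picked for likeness over these libraries, so this match is not a separate result. Agtr1b was nearest to Igsf10 (0.06), the glutamate receptor subunit gene Grin3a (0.09) and the membrane metalloproteinase gene Mmp16 (0.10), which unlike Agtr1b kept means of 51.4 to 134 normalized counts in the islets. Because Agtr1b had no islet read, its difference between the groups on this scale, and so the choice of these 3 genes, is set by the pseudocount of 1. Agtr1a was nearest to Adtrp (0.08), the small nucleolar RNA gene Snord55 (0.09) and Ccm2l (0.10), and Mas1 to Astn1 (0.05), Gpr21 (0.10) and the histone deacetylase gene Hdac7 (0.11). For Agtr2 the nearest were farther off, with BC006965 (0.55), Rtl3 (0.62) and Nrk (0.73), of which the first 2 had no read in the islets. With 1 islet read in all for Agtr2, these distances also depend on the pseudocount of 1. These are descriptions over 6 libraries in which the difference between the groups dominates.

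Of 19 other genes for peptidases that make, trim or degrade angiotensins, 16 were tested, 7 rose, 8 fell and 1 was not called, with a median log2 fold change of −0.26. The steepest rise was in Klk1, a kallikrein that can release kinins and cut angiotensinogen, from 6.72, 10.4 and 6.54 normalized counts to 7964, 17885 and 6931, by 10.16 on the log2 scale (SE 0.34), and it passed the filter through the islet libraries. Its second islet library was the highest, as it was for the acinar sum, and near-identical kallikrein genes leave its reads uncertain. The part of acinar cells in the Klk1 values was not tested. Enpep, the aminopeptidase A that turns angiotensin II into angiotensin III, rose from 537 ± 24.9 to 2424 ± 29.8 (n = 3, log2 fold change 2.17).

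The falls were led by genes of mast cells. Cpa3 encodes a mast cell carboxypeptidase and Cma1 a mast cell chymase. They had means of 483 ± 104 and 125 ± 16.7 normalized counts (n = 3) in the embryonic pancreas and no read in any islet library. Their observed embryonic levels were 458 and 119 times the limit of 3 reads over the islet group. Mcpt4 and Ctsg, other proteases of myeloid cells, had 11 and 7 embryonic reads and none in the islets and were not tested. Mme, encoding neprilysin, which can make the Mas1 ligand, was named after its values were seen, and went from 251 ± 73.4 to 3.89 ± 3.85 (n = 3). Like Cpa3 and Cma1 it was tested through the embryonic libraries alone, since all of its islet values lay under the minimum of 10.

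Among 9 genes of the prorenin receptor and of receptor partners, 7 were tested, 4 rose, 2 fell and 1 was not called, with a median log2 fold change of 0.88. Atp6ap2, the prorenin receptor and an accessory subunit of the vesicular proton pump, had 2092, 2407 and 1871 normalized counts in the embryonic pancreas, against 20313, 20180 and 24104 in the islets, with no overlap and a log2 fold change of 3.34 (SE 0.12, limma-trend adjusted p = 3.9e-08). Bdkrb2, the bradykinin receptor gene, rose from 139 ± 21.8 to 378 ± 52.1 (log2 fold change 1.44). Zbtb16, a zinc finger protein that binds the prorenin receptor, fell from 62.5 ± 12.7 to 14.6 ± 9.14, and Igf2r, the mannose 6-phosphate receptor that takes up prorenin, from 25008 ± 2282 to 14340 ± 841 (log2 fold changes −2.26 and −0.80, n = 3). Mrgprd, another receptor for angiotensin fragments, had 1 read in all.

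Of 15 genes for signalling below the type 1 receptor, 14 were tested, 8 rose, 6 fell and 0 were not called, with a median log2 fold change of 0.70. Of all genes tested 72.8% were called, so calls in most of a short list are common here. Rgs4, a brake on Gq proteins, rose from 578 ± 113 to 15551 ± 2375 (n = 3, log2 fold change 4.75) and Prkca, a protein kinase C, from 1052 ± 99.0 to 7177 ± 398 (2.77). Gnaq and Gna11, the G proteins themselves, were among the genes that rose (0.76 and 0.64, named after their values were seen). The falls were led by subunits of the NADPH oxidases, Nox4 from 441 ± 17.2 to 14.0 ± 8.65 and Cyba from 1099 ± 131 to 132 ± 20.01 (log2 fold changes −5.12 and −3.05). Of 10 macrophage markers 2 rose and 7 fell, with summed values of 7615 to 8380 in the embryonic libraries, led by Mrc1 and Csf1r, and 2932 to 3313 in the islets, led by C1qa and Cd68. The part of macrophages in the oxidase values was not tested.

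Of 11 genes of aldosterone synthesis and response 9 were tested, 5 rose, 1 fell and 3 were not called, with a median log2 fold change of 2.14. Nr3c2, the mineralocorticoid receptor, had 114, 111 and 103 normalized counts in the embryonic pancreas, against 1139, 1244 and 1337 in the islets, a log2 fold change of 3.49 (SE 0.12, limma-trend adjusted p = 3.4e-08). Scnn1b, a subunit of the epithelial sodium channel, rose from 66.8 ± 19.6 to 7731 ± 171 (log2 fold change 6.88, n = 3). The gene of the first enzyme of steroid synthesis, Cyp11a1, had 35.5, 35.5 and 51.5 normalized counts in the embryonic libraries and no read in the islets. Its observed embryonic level was 39.5 times the limit of 3 reads over the islet group. Cyp11b1 had 1 read in all.

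**Figure D5:**
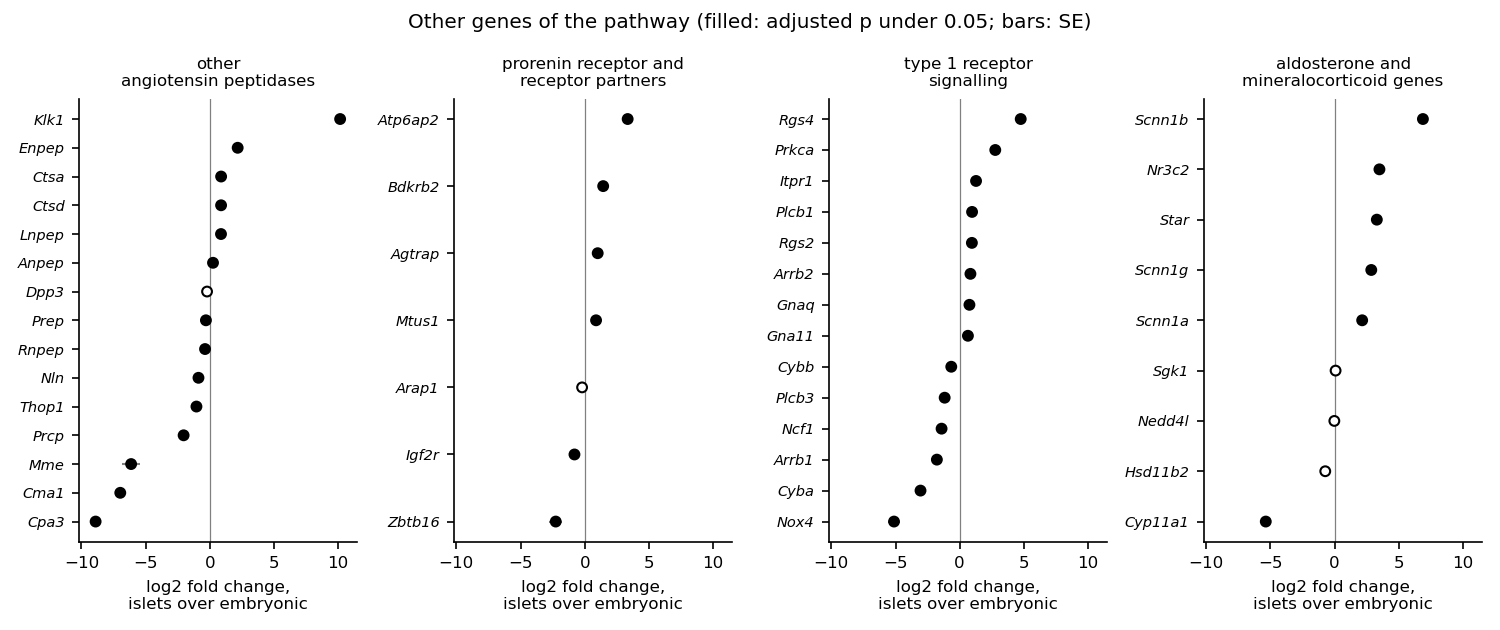
Log2 fold change, adult islets over embryonic pancreas (horizontal axis, shared), of tested genes of 4 lists of the pathway (1 tested peptidase is not drawn); bars are SE, filled points have an adjusted p under 0.05 by limma-trend and open points do not. Klk1 at 10.16 and Scnn1b at 6.88 lie farthest to the right, and Cpa3 at −8.89 and Cma1 at −6.97, both without islet reads, farthest to the left.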

How the data were processed

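RNA was sequenced from 3 e15.5 pancreas and 3 adult islet libraries, made with a TruSeq RNA kit per the labels' protocols. The submitters' processing notes name build mm10 (GRCm38), DESeq2, Cufflinks 1.2.1, TopHat 1.3.2 and CASAVA 1.8.2. Counter, annotation and strand setting: not given in the sources used here. Per the file headers the authors deposited, for each library, a normalized signal (reads per gene divided by a size factor) and their own DESeq2 mean signal, log2 fold change, linear fold ratio, a standard error and test score, and p-value and adjusted p-value. Of the authors' comparison only adjusted p-values were used. The 5 entries that name no gene held 40.7 to 54.6% of reads and were left out. Reads with low alignment quality were listed at 0 in embryonic library 3 alone and at 1264897 to 2083120 in the others.

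Values were whole multiples of 1 step per library within 0.01 reads for 100% of values, so reads were recovered. In the second islet library the step, 0.992, lies near 1, so recovered and rounded reads are the same for genes of few reads. They differ for higher genes, as for Agt with 746 normalized counts and 752 recovered reads there. limma-trend (limma 3.58.1, R 4.3.3) was run on log2(value + 1) with 4 residual degrees of freedom and tested on simulated data first. Alternatives were other scalings, pseudocounts (0.1 and 5) and filters (none, or 50), edgeR 4.0.16 (quasi-likelihood) and DESeq2 1.42.0 on recovered reads, a replicate block and each library left out. Permutation tests and intervals used SciPy 1.17.1. Names were matched to GENCODE M21 for 36971 genes. The 1 listed gene without a row under its symbol, of the aldosterone list, was not used here. Libraries of a group differed by more than sampling noise.

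The members and gene lists were chosen with earlier results of these data known. Genes named were all members, the 2 steepest called rises and falls of each pathway list, the 2 most abundant markers of each list in each group and those at 0, and the 3 genes most alike to each called member, with symbols starting with Gm or ending in Rik left out. Some listed genes, and 1 of the 5 within-library tests, are not reported here.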

Additional observations from a re-analysis of the deposited data

How the results depend on the processing

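Agt kept its direction and call under all 16 alternatives. Agtr2, Agtr1b and Ren1, with 1 or no read in the islets, could not change direction, so the alternatives say nothing of their stability. Under quantile normalization Ace became called (log2 fold change 0.89), while Agtr1a (−0.50) and Mas1 (−0.34) lost their calls, and Mas1 also lost its call under upper quartile scaling (−0.69). The causes were not tested. With each library left out Mas1 ranged from −0.99 to −0.64 and its adjusted p from 0.00695 to 0.0720, and Agtr1a from −1.13 to −0.75. The fold sizes of Agtr2 (−13.60 to −9.05) and Agtr1b (−7.39 to −2.12) moved with the pseudocount. Ren1 missed the filter and so was not fitted under quantile normalization, the minimum of 50, the replicate block or the count models. Without a filter its log2 fold change was −1.62 (limma-trend adjusted p = 0.0594). Agtr1a and Agtr1b were not tested with a minimum of 50. The number of genes called ranged from 12641 to 18733 over the alternatives and that of each pathway list stayed within 1.5 times. With the replicate block 15612 genes were called against 15770, and no member changed its call. Libraries with the same number did not deviate together (correlations 0.0369, 0.0775 and 0.0054), and the third embryonic library did not correlate best with its own number. Few reads limit Ren1 (10 in all), Agtr1b (55) and the islet values of Agtr1a (72).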
